A study of Homo sapiens with 6 samples.

Results

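The 10 genes described here encode the contractile apparatus by which a myofibroblast is recognised: ACTA2, TAGLN, CNN1, MYL9, TPM1, TPM2, ACTN1, CALD1, MYH9 and ACTG2. They were listed by symbol, with earlier results of these data known, and all 10 were found among the 38100 genes of the deposited tables. The RNA came from HK2 cells, an immortalised epithelial line from the proximal tubule of human kidney, with a genotype labelled WT. AdCtrl cells carried an adenovirus with an empty vector and AdSIRT4 cells an adenovirus that overexpresses SIRT4, a sirtuin best known from mitochondria, and each group has 3 samples. All 6 samples were stimulated with TGF-β1, and cells without TGF-β1 were not analysed here, so every comparison is between virus groups under TGF-β1 and none shows the response to TGF-β1 itself. The sample titles name HK2 throughout, although the number in the cell-line label changes from sample to sample. The study counts its replicates in vitro as technical, so the p-values measure the spread between these samples, which may be technical. Values of single samples are given in the order of replicates 1, 2 and 3.

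In fibrosis, TGF-β drives fibroblasts, and to a lesser degree injured tubular epithelium, towards a contractile state. Smooth muscle actin joins nonmuscle myosin in stress fibres, tropomyosin and caldesmon cover the filament, and alpha-actinin cross-links it. Many of these genes are read by serum response factor (SRF) and its actin-sensing cofactors.

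Sequences that transcription factors of this programme recognise were looked for in the stretch from 250 bases before to 50 bases after each gene's start, in the part before the start (RefSeq, GRCh38.p14, both strands). The table held such a window for 8 of the 10 genes, the exceptions being TAGLN and MYL9. The CArG box, the site bound by SRF, was found in 1 of the 8, ACTG2, and in 1.14% of all 27305 windows. ACTG2 has a pair of them, from 110 to 101 and from 73 to 64 bases before its start, at chr2:73892878-73892927 and chr2:73892915-73892964 with their flanks on the plus strand, and they are shown because no other window of the 8 has one, with the box in capitals.
ACTG2 distal CArG box: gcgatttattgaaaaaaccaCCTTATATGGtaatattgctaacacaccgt
ACTG2 proximal CArG box: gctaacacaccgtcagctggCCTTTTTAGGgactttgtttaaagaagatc

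The TEAD motif GGAATG was present in CALD1 and MYH9, 2 of the 8, and in 11.9% of all windows. The SMAD motif CAGAC was present in 5 of the 8 (ACTA2, CNN1, TPM1, CALD1 and MYH9) and in 37.8% of all windows. One stretch each is shown for ACTA2, the defining myofibroblast gene, for TPM1, the most abundant of the set, and for CALD1 and MYH9, with the motif in capitals and the SMAD motif as its reverse complement GTCTG. They lie at chr10:88991417-88991461 on the minus strand (ACTA2), chr15:63048368-63048412 on the plus strand (TPM1), chr7:134779420-134779465 on the plus strand (CALD1) and chr22:36388012-36388057 on the minus strand (MYH9). The TPM1 and CALD1 windows belong to starts inside the full span of these genes, and the TPM1 stretch also lies within the antisense gene TPM1-AS. The ACTA2 window belongs to the outermost start of that gene, and its stretch lies within FAS, a gene on the opposite strand. A window without a motif describes that start only and not other starts of the same gene. A match describes these letters and is not a measured binding site.
ACTA2 SMAD motif: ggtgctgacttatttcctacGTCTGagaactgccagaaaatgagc
TPM1 SMAD motif: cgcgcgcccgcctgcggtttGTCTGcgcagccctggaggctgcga
CALD1 TEAD motif: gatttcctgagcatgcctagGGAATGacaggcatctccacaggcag
MYH9 TEAD motif: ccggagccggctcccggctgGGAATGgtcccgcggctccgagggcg

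The libraries held between 41537353 and 85684748 counts, with 3 counts worth 0.0348 to 0.0770 CPM (counts scaled by library size). AdSIRT4 replicates 2 and 3 were the deepest, with 85684748 and 80040053 counts. The AdCtrl samples held 42102861 to 53677241 counts and AdSIRT4 replicate 1 held 41537353. The SIRT4 count, which includes the transcript of the virus, was 31 to 57 in AdCtrl and 1996 to 7995 in AdSIRT4 samples. AdSIRT4 replicate 1 stood apart from the other AdSIRT4 replicates along gene length. Its median log2 CPM was higher by 0.67 in the shortest of 10 equal classes of genes and differed by -0.74 in the longest. Each result below is therefore also given without it or with the length trend of each library removed where that matters. Of the markers, 8 of 9 epithelial genes reached 1 FPKM (counts scaled by gene length and library size) in every sample. The exception was CDH1, which encodes E-cadherin, with means of 0.119 FPKM in AdCtrl and 0.108 FPKM in AdSIRT4 cells. Among 9 proximal tubule genes only GGT1 reached 1 FPKM in every sample, and LRP2, CUBN, AQP1, ANPEP, SLC22A6 and HNF4A stayed under 0.1 FPKM. The summed FPKM of the 8 smooth muscle markers was 12.3 to 14.7 in AdCtrl and 13.8 to 15.0 in AdSIRT4 samples, almost all of it SMTN and CNN1, with DES and MYOCD under 0.1 FPKM. The summed fibroblast markers were at 9.21 to 10.2 FPKM in AdCtrl and 9.02 to 9.78 FPKM in AdSIRT4 samples. Most of this was LUM, with means of 5.32 FPKM in AdCtrl and 5.71 FPKM in AdSIRT4 cells, and COL1A1, with 3.99 and 3.30 FPKM. PDGFRA, COL1A2, COL3A1, DCN and POSTN were under 0.1 FPKM. The 6 endothelial markers summed to 0.0593 to 0.0910 FPKM in AdCtrl and 0.0687 to 0.111 FPKM in AdSIRT4 samples. Of the leukocyte markers, CD68 was at 17.0 to 22.2 FPKM over the 6 samples, while PTPRC and CD3E were under 0.1 FPKM. The epithelial sum was 1044 to 1164 and 1141 to 1302 FPKM, and the proximal tubule sum, nearly all GGT1, was 78.9 to 84.0 FPKM in AdCtrl and lower, at 65.9 to 75.0 FPKM, in AdSIRT4 samples, and its part in the results below was not tested.

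The levels per gene length covered 4 orders of magnitude, and the smooth muscle genes ACTA2, TPM2 and ACTG2 were at the bottom. TPM1 led with 615 ± 42.1 FPKM (SD, n = 3) in AdCtrl and 830 ± 104 FPKM in AdSIRT4 cells, the rank 62 of 38100 genes. MYH9 followed at 152 ± 5.33 and 145 ± 42.9 FPKM, then ACTN1 at 77.5 ± 3.72 and 68.6 ± 22.8 FPKM and MYL9 at 57.5 ± 3.36 and 57.8 ± 12.2 FPKM. ACTN1 and MYL9 were apart in AdCtrl cells, while in AdSIRT4 cells their samples overlapped. CALD1 reached 24.4 ± 1.14 and 25.8 ± 1.75 FPKM, TAGLN 12.5 ± 0.509 and 17.0 ± 3.72 FPKM, and CNN1 4.20 ± 0.164 and 4.62 ± 0.543 FPKM. ACTA2 was at 1.23 ± 0.0722 and 1.13 ± 0.245 FPKM. TPM2 and ACTG2 were lower still and overlapped each other. Apart from those 2 overlaps, no sample of a gene reached the range of its neighbour in this order.

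**Figure D1:**
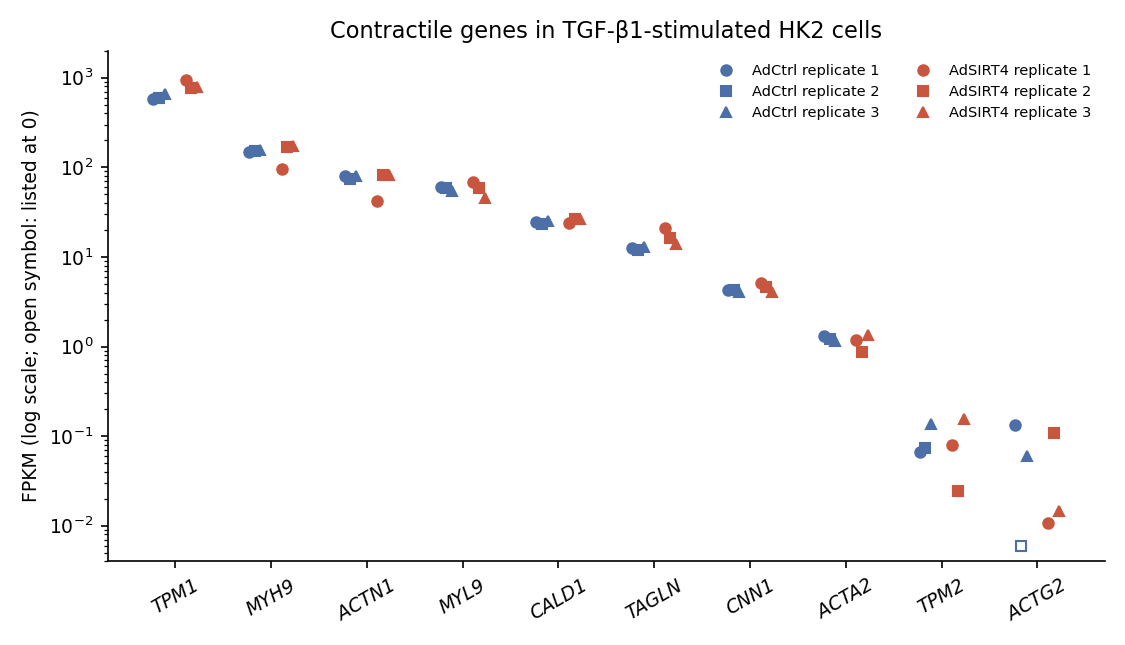
FPKM of the 10 contractile genes on a log axis, with 1 point per sample, blue for AdCtrl and red for AdSIRT4, and symbol shape for the replicate. TPM1 lies at 582 to 950 FPKM, ACTA2 between 0.862 and 1.35 FPKM and TPM2 and ACTG2 under 0.2 FPKM, and AdSIRT4 replicate 1 (red circle) is the lowest sample for MYH9 and ACTN1 and the highest for TPM1 and TAGLN.

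No contractile gene differed between AdSIRT4 and AdCtrl cells at an adjusted p under 0.05 (edgeR's quasi-likelihood test with Benjamini-Hochberg adjustment over the 17720 genes with enough counts). In that fit 0.0113% of all tested genes passed. DESeq2 and limma on log2(FPKM + 1) gave 0 contractile genes at the adjusted threshold as well, and 2 at the unadjusted one, although limma with the replicate block gave 0 there too. Of the 10 genes, 8 had enough counts for the test, and TPM2 and ACTG2 did not. At an unadjusted p under 0.05, 2 of the 8 passed, TAGLN and TPM1, both higher in AdSIRT4 cells, where 7.93% of all tested genes passed in either direction and 4.43% were higher. For 3 of the 8, TAGLN, TPM1 and CALD1, the CPM of AdSIRT4 samples were higher with no overlap between the groups, as for 9.66% of all tested genes. The log2 fold changes of the 8 had a median of 0.08, beside 0.02 over all tested genes, with 5 above and 3 below 0. The split moved with the scaling, to 6 above and 2 below with the length trend removed, 5 and 5 in DESeq2 and 4 and 6 in limma on log2(FPKM + 1), where all 10 were fitted. A different share of contractile cells and a different amount of RNA per cell cannot be told apart in such bulk samples.

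TPM1 encodes the tropomyosin that winds along actin filaments and stabilises stress fibres. It had 1136, 1204 and 1254 CPM under AdCtrl, and 1993, 1486 and 1519.8 CPM under AdSIRT4. The 3 AdSIRT4 values are above the 3 AdCtrl values, and AdSIRT4 replicate 1 is far above the rest. The group means were 1198 ± 59.4 and 1666 ± 283 CPM (SD, n = 3), a 1.39-fold difference. This was a log2 fold change of 0.48 ± 0.154 (SE), and edgeR gave p = 0.0176 before and 0.553 after adjustment (exact permutation test, two-sided, p = 0.1, below which 3 against 3 samples cannot go). Without AdSIRT4 replicate 1 the log2 fold change was 0.32 ± 0.0554 (SE) and passed, with an adjusted p of 0.00974 from edgeR. With the length trend removed from all 6 samples it was 0.39 ± 0.0726 (SE, edgeR adjusted p = 0.117). TPM1 was thus higher in AdSIRT4 cells in each of these fits, by 1.25-fold without the deviating library, and the call rests on leaving that library out. Over all fits its adjusted p ran from 0.00974 to 0.971.

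TPM1 spans 63042747 to 63071915 on the plus strand of chromosome 15 (GRCh38), and an antisense RNA, TPM1-AS, covers 63046034 to 63049387 on the other strand. The library protocol names no step that keeps the strand, so reads from the stretch that overlapping genes share may be assigned to either gene. TPM1-AS had counts of 392, 362 and 499 under AdCtrl, and 76, 1218 and 1159 under AdSIRT4. These were between 0.0979% and 0.951% of the TPM1 count of the same sample, so they are small beside the difference in TPM1. AdSIRT4 replicate 1, with the highest TPM1 level, had the lowest TPM1-AS count. Scaled by library size, TPM1-AS had 7.25, 8.52 and 9.71 CPM under AdCtrl, and 1.95, 14.1 and 14.3 CPM under AdSIRT4. Its log2 fold change was 0.27 with all samples (edgeR adjusted p = 0.889). Without AdSIRT4 replicate 1 it was 0.74 (edgeR adjusted p = 0.00554).

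The share of TPM1 among tropomyosins differed as well. TPM1 made up 65.0, 66.0 and 68.2% of the summed tropomyosin FPKM under AdCtrl, and 75.3, 70.2 and 72.2% under AdSIRT4. The groups did not overlap, with or without AdSIRT4 replicate 1 (66.4 ± 1.62% and 72.6 ± 2.54%, SD, n = 3, exact permutation test, p = 0.1). Such shares were compared for 24 genes in 7 families, 9 of them without overlap. A higher share of 1 gene lowers the others of its family, so the 9 are not separate results. The smallest Benjamini-Hochberg adjusted p of these exact tests was 0.267, and none under 0.1 was possible. TPM4, a tropomyosin of nonmuscle cells, held 21.8 ± 0.978% in AdCtrl and 17.0 ± 2.49% in AdSIRT4 cells, and TPM3 held 11.7 ± 0.781% and 10.4 ± 0.278%. Both shares were lower in every AdSIRT4 sample than in every AdCtrl sample, although the FPKM of TPM3 was 108 ± 4.03 in AdCtrl and 119 ± 11.7 in AdSIRT4 cells, so a share can be lower without a lower level. TPM2, the tropomyosin of smooth and slow skeletal muscle, had counts of 5, 6 and 11 under AdCtrl, and 5, 3 and 18 under AdSIRT4. These few reads overlapped between the groups, and no fold change is given.

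TAGLN encodes transgelin (SM22), an actin-binding protein and an early marker of smooth muscle differentiation. It had 53.8, 53.2 and 54.1 CPM under AdCtrl, and 98.4, 70.2 and 59.2 CPM under AdSIRT4. The AdCtrl samples were nearly the same, whereas the AdSIRT4 samples were all higher and spread widely, with replicate 1 on top. The means were 53.7 ± 0.464 and 76.0 ± 20.2 CPM (SD, n = 3), a 1.41-fold difference. On the log2 scale this was 0.50 ± 0.183 (SE), and edgeR gave p = 0.0296 before and 0.607 after adjustment (exact permutation test, p = 0.1). Without AdSIRT4 replicate 1 it was 0.26 ± 0.0691 (SE), 1.20-fold, and just passed with an adjusted p of 0.0453 from edgeR. Over all fits the adjusted p ran from 0.0453 to 0.971.

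The TAGLN gene lies on the plus strand of chromosome 11 from 117199294 to 117207465 in RefSeq and ends at 117204782 in GENCODE. Both ends lie within PCSK7, a proprotein convertase gene on the other strand that spans 117204337 to 117232073. The length implied by the counts and FPKM was 4.37 kb, whereas the principal GENCODE transcript has 2.17 kb of exons. PCSK7 had 44.3, 44.5 and 43.1 CPM under AdCtrl, and 25.1, 41.0 and 41.1 CPM under AdSIRT4. PCSK7 was lower in all AdSIRT4 samples (log2 fold change -0.30, edgeR adjusted p = 0.731). Without AdSIRT4 replicate 1 its log2 fold change was -0.10 (edgeR adjusted p = 0.283). Its count was 82.2, 83.5 and 79.6% of the TAGLN count under AdCtrl, and 25.5, 58.4 and 69.5% under AdSIRT4. The part of shared reads in either level was not tested. Relative to its paralog TAGLN2, TAGLN made up 4.42, 4.38 and 4.37% of transgelin FPKM under AdCtrl, and 5.75, 4.89 and 4.27% under AdSIRT4. These shares overlapped (exact permutation test, p = 0.4).

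CALD1 encodes caldesmon, which binds actin and tropomyosin and restrains the myosin ATPase. It had 117, 115 and 118 CPM under AdCtrl, and 123, 129 and 127 CPM under AdSIRT4. The difference was small but every AdSIRT4 sample was higher, and AdSIRT4 replicate 1 was close to the others in this gene. The means were 116 ± 1.65 and 126 ± 2.98 CPM (SD, n = 3), with a log2 fold change of 0.11 ± 0.0833 (SE, edgeR adjusted p = 0.744, exact permutation test, p = 0.1). On the FPKM scale AdSIRT4 replicate 1, at 23.7, fell within the AdCtrl range of 23.2 to 25.5, so the separation held for CPM and not for FPKM. The log2 fold change was 0.13 without AdSIRT4 replicate 1 (adjusted p = 0.142) and 0.16 with the length trend removed (adjusted p = 0.342, both from edgeR).

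ACTA2 encodes alpha smooth muscle actin, the protein by which myofibroblasts are usually stained. It had 2.59, 2.52 and 2.26 CPM under AdCtrl, and 2.54, 1.71 and 2.65 CPM under AdSIRT4. The groups overlapped, and AdSIRT4 replicate 2 was the lowest of the 6 samples. On the log2 scale the difference was -0.10 ± 0.211 (SE, edgeR adjusted p = 0.881), and it ran from -0.22 to 0.08 with each sample left out, the value above 0 being that without AdSIRT4 replicate 2. ACTA2 made up 0.0384 ± 0.00279% of the summed actin FPKM in AdCtrl and 0.0328 ± 0.00877% in AdSIRT4 cells (SD, n = 3). The cytoplasmic actins ACTB and ACTG1 held nearly all of the rest, at 1527 ± 29.3 and 1672 ± 105 FPKM in AdCtrl and 1759 ± 225 and 1709 ± 157 FPKM in AdSIRT4 cells. The striated muscle actins ACTC1 and ACTA1 were under 0.15 FPKM in every sample. Actin genes are so alike that some reads can be assigned to the wrong one, which makes levels near those of ACTA2 uncertain beside such abundant paralogs. ACTA2 also shares 27288 bases of its span, on the opposite strand, with FAS, a death receptor gene whose count was 781 to 1148% of the ACTA2 count.

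ACTG2 encodes gamma smooth muscle actin of visceral muscle. Its counts were 13, 0 and 6 under AdCtrl, and 1, 17 and 2 under AdSIRT4. The gene with the pair of CArG boxes shown above was thus the one with the lowest mean level of the set, although ACTG2 was above TPM2 in AdCtrl replicate 1 and AdSIRT4 replicate 2, with samples of both groups at or under 3 counts. CNN1 encodes basic calponin, an actin-binding protein of differentiated smooth muscle. It had 7.38, 7.44 and 6.58 CPM under AdCtrl, and 9.55, 7.78 and 6.90 CPM under AdSIRT4, so the groups overlapped. Its log2 fold change was 0.18 ± 0.150 (SE, edgeR adjusted p = 0.766) and 0.04 without AdSIRT4 replicate 1. CNN1 made up 1.74 ± 0.0895% of calponin FPKM in AdCtrl and 1.78 ± 0.131% in AdSIRT4 cells (SD, n = 3), the rest being CNN2 and CNN3.

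For the motor gene MYH9, the light chain gene MYL9 and the cross-linker gene ACTN1, the sign of the difference changed when AdSIRT4 replicate 1 was left out. MYH9 encodes the heavy chain of nonmuscle myosin IIA, the motor of stress fibres outside muscle. It had 1242, 1318 and 1281 CPM under AdCtrl, and 873, 1418 and 1423 CPM under AdSIRT4. AdSIRT4 replicates 2 and 3 were above all AdCtrl samples and replicate 1 was below them all. The log2 fold change was -0.05 ± 0.203 (SE, edgeR adjusted p = 0.938) with all samples, and without AdSIRT4 replicate 1 it was 0.14 ± 0.0511 (SE, edgeR adjusted p = 0.114). MYH9 is the longest of the set, with an implied length of 8.50 kb. With the length trend removed its log2 fold change was 0.04, so the sign changed in both fits.

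Among myosin heavy chains of this class the balance was less variable than the level. MYH9 held 81.2, 81.8 and 82.1% of the summed FPKM of MYH9, MYH10, MYH11 and MYH14 under AdCtrl, and 84.8, 83.7 and 83.5% under AdSIRT4. The groups did not overlap, with or without AdSIRT4 replicate 1 (81.7 ± 0.465% and 84.0 ± 0.704%, SD, n = 3, exact permutation test, p = 0.1). MYH10, the heavy chain of nonmuscle myosin IIB, held 18.2 ± 0.460% and 16.0 ± 0.714%. The smooth muscle heavy chain MYH11 was at 0.104 FPKM or less in every sample.

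MYL9 encodes a regulatory light chain whose phosphorylation switches contraction on. It had 190, 190 and 163 CPM under AdCtrl, and 236, 186 and 139.8 CPM under AdSIRT4. The AdSIRT4 samples spread to both sides of the AdCtrl samples. Its log2 fold change was 0.05 ± 0.193 (SE, edgeR adjusted p = 0.936), and -0.16 without AdSIRT4 replicate 1. It was also slightly below 0 without AdCtrl replicate 3 (-0.02) and in limma on log2(FPKM + 1) with all samples (-0.01). MYL9 made up 12.5 ± 0.887% of the regulatory light chain FPKM in AdCtrl and 11.0 ± 1.35% in AdSIRT4 cells (SD, n = 3), with MYL12A and MYL12B as the rest, and the groups overlapped (exact permutation test, p = 0.2).

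ACTN1 encodes alpha-actinin 1, which cross-links actin in stress fibres and focal adhesions. It had 331, 312 and 319 CPM under AdCtrl, and 190, 340 and 334 CPM under AdSIRT4. AdSIRT4 replicate 1 was far below all other samples, and the other AdSIRT4 samples were slightly above the AdCtrl samples. The log2 fold change was -0.16 ± 0.221 (SE, edgeR adjusted p = 0.838) with all samples and 0.07 ± 0.0512 (SE, edgeR adjusted p = 0.460) without AdSIRT4 replicate 1. ACTN1 made up 41.4, 40.8 and 42.4% of the summed FPKM of ACTN1 and its paralog ACTN4 under AdCtrl, and 38.1, 42.3 and 42.8% under AdSIRT4. In AdSIRT4 replicate 1 the share was the lowest of all samples. Its log2 CPM differed from the other AdSIRT4 replicates by -0.83 for ACTN1 and by -0.55 for ACTN4.

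The deviation of AdSIRT4 replicate 1 was like that of genes of the same length for some contractile genes and not for others. Relative to the mean of AdSIRT4 replicates 2 and 3 it was 0.25 on the log2 scale for ACTA2, 0.38 for CNN1 and 0.41 for TPM1, where genes of the same length had medians of 0.31, 0.49 and 0.31. For MYH9 it was -0.70, beside a median of -0.43. These genes deviated in the direction of others of their length. TAGLN, at 0.61 beside a median of -0.16, MYL9, at 0.55 beside 0.06, and ACTN1, at -0.83 beside -0.04, did not lie near theirs. For TAGLN the annotated exons are shorter than the implied length, and with annotated GENCODE lengths in place of the implied ones its log2 fold change was 0.43 rather than 0.53 once the trend was removed. The part of RNA quality or library preparation in the deviation was not tested.

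**Figure D2:**
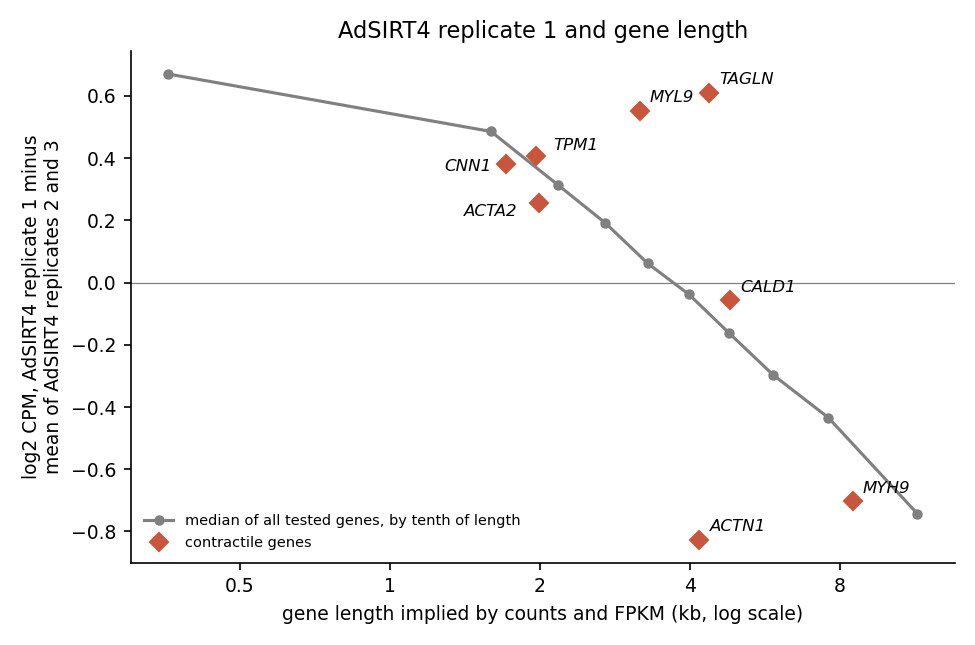
Log2 CPM of AdSIRT4 replicate 1 minus the mean of AdSIRT4 replicates 2 and 3 against the gene length implied by the deposited tables (log axis). The grey line joins the medians of all tested genes in 10 classes of length, from 0.67 to -0.74, and red diamonds are the 8 tested contractile genes, of which TAGLN and MYL9 lie above the line and ACTN1 below it.

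Without AdSIRT4 replicate 1, 2 AdSIRT4 samples were compared with 3 AdCtrl samples. Both of these AdSIRT4 libraries held more counts than any AdCtrl library. The part of sequencing depth in the calls of that fit was not tested. In it TPM1 and TAGLN passed an adjusted p under 0.05, where 3.37% of the 18287 genes then tested passed with AdSIRT4 higher. At an unadjusted p under 0.05, TPM1, TAGLN, CALD1 and MYH9 passed, all higher in AdSIRT4 cells, where 24.3% of all tested genes passed. With the length trend removed from all 6 samples TAGLN, TPM1 and CALD1 passed an unadjusted p under 0.05, where 13.9% of all tested genes passed, and none passed the adjusted one. With the block added to that fit CALD1 no longer passed. Without AdCtrl replicate 1 or AdCtrl replicate 2 no contractile gene passed either threshold, and without AdCtrl replicate 3 TPM1 alone passed the unadjusted one. In no edgeR fit did a contractile gene pass with AdSIRT4 lower. Samples with equal replicate numbers deviated weakly alike, which does not establish pairs. With these numbers as a block TAGLN and TPM1 again passed the unadjusted threshold (edgeR adjusted p = 0.680 and 0.686).

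**Figure D3:**
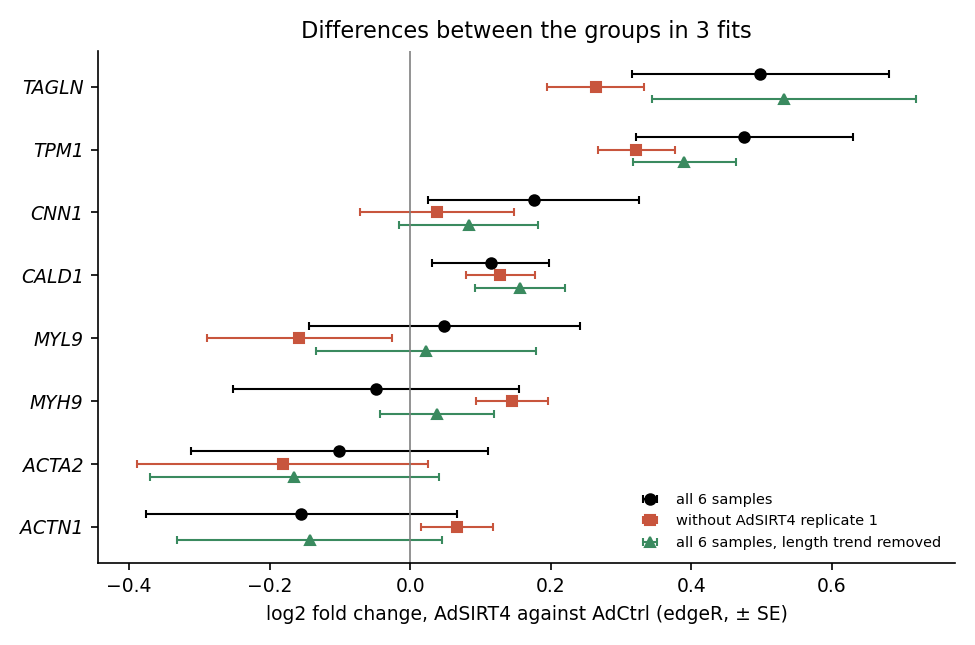
Log2 fold change of AdSIRT4 against AdCtrl (edgeR, bars are standard errors) for the 8 tested contractile genes, with all 6 samples (black), without AdSIRT4 replicate 1 (red) and with the length trend removed (green). TAGLN, TPM1, CNN1 and CALD1 are above 0 in all 3 fits, with TPM1 at 0.48, 0.32 and 0.39, while MYL9, MYH9 and ACTN1 change sign.

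A wider list of 40 other cytoskeletal and smooth muscle genes gave no adjusted call either. Of these, 37 were tested, 22 with a log2 fold change above 0 and 15 below, with a median of 0.07 beside 0.02 over all tested genes. At an unadjusted p under 0.05, 2 were higher and 2 lower in AdSIRT4 cells, so 4 of 37 passed where 7.93% of all tested genes did. With the replicate block ZYX and TAGLN2 no longer passed. ZYX, encoding the focal adhesion protein zyxin, had 76.9, 84.8 and 82.4 CPM under AdCtrl, and 101, 99.2 and 88.5 CPM under AdSIRT4 (log2 fold change 0.24, adjusted p = 0.612 from edgeR). TAGLN2 had 421, 421 and 429 CPM under AdCtrl, and 584, 490 and 476 CPM under AdSIRT4 (log2 fold change 0.29, adjusted p = 0.623 from edgeR). Both were higher in all AdSIRT4 samples.

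On the lower side, LMOD1, which encodes an actin nucleator of smooth muscle, had counts of only 74, 72 and 61 under AdCtrl, and 22, 68 and 39 under AdSIRT4. As CPM these were 1.42 ± 0.257 and 0.611 ± 0.160 (SD, n = 3), without overlap (log2 fold change -1.20, adjusted p = 0.494 from edgeR). LIMA1, which encodes the actin-bundling protein EPLIN, had 49.2, 44.0 and 50.3 CPM under AdCtrl, and 40.0, 36.5 and 40.4 CPM under AdSIRT4 (log2 fold change -0.30, adjusted p = 0.571 from edgeR). Without AdSIRT4 replicate 1, TAGLN2 on the higher side and LMOD1 and LIMA1 on the lower side passed an adjusted p under 0.05 (0.0477, 0.0394 and 0.0260, edgeR), 3 of 37, where 6.71% of all genes tested in that fit passed. Their adjusted p reached 0.971 in other fits.

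Of 25 genes that encode SRF, its cofactors and regulators of actin assembly and myosin activity, 24 were tested, and MYOCD, the cofactor of SRF in smooth muscle, was not. Among their log2 fold changes 13 were positive and 11 negative (median 0.03), whereas limma on log2(FPKM + 1) gave 9 positive of 25. None passed the adjusted threshold in edgeR (RND3 did in DESeq2, adjusted p = 0.0218), and 3 of 24 passed the unadjusted one, all higher in AdSIRT4 cells, where 4.43% of all tested genes passed with AdSIRT4 higher. With the replicate block SRF no longer passed, which left RND3 and RHOB. SRF itself had 73.8, 79.9 and 75.2 CPM under AdCtrl, and 84.6, 95.0 and 88.3 CPM under AdSIRT4 (log2 fold change 0.23, adjusted p = 0.612 from edgeR). RND3, which encodes a small GTPase, had 83.5, 85.8 and 85.3 CPM under AdCtrl, and 135, 109 and 115 CPM under AdSIRT4 (log2 fold change 0.49, adjusted p = 0.494 from edgeR). In both genes the groups were separate.

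RHOB, which also encodes a small GTPase, had 199.99, 177 and 157 CPM under AdCtrl, and 328, 277 and 227 CPM under AdSIRT4 (log2 fold change 0.64, adjusted p = 0.494 from edgeR). It too was higher in every AdSIRT4 sample. Without AdSIRT4 replicate 1 the adjusted p was 0.0226 for SRF, 0.00233 for RND3 and 0.0567 for RHOB (edgeR). SRF, RND3 and, with AdSIRT4 lower, FHL2 thus passed in that fit, 3 of 24 genes, where 6.71% of all genes tested in it passed. Over all fits the adjusted p of SRF ran from 0.0226 to 0.971 and that of RND3 from 0.00233 to 0.971.

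The levels of 68 genes of these lists were compared with those of ACTA2 over the 6 samples. The highest Pearson correlations of log2 CPM were those of LIMA1 (r = 0.46), FHL2 (r = 0.37) and VASP (r = 0.34). The strongest of the opposite sign were SRF (r = -0.55) and CALD1 (r = -0.49), named after their values were seen. The values share the 6 libraries and their length trend, and ACTA2 rests on few reads, so these correlations are weak descriptions. The values for TPM1 and TAGLN were closer to 0 (r = -0.05 and -0.14).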

How the data were processed

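Poly(A) RNA of 6 samples (3 AdCtrl, 3 AdSIRT4) was sequenced as double-stranded cDNA, with no strand-marking step named. The authors deposited raw counts per gene, without normalization, and a second table whose values behave as FPKM, which no source names. The submitters' processing notes name fastp 0.21.0, HISAT2 2.1.0, StringTie 2.1.5, DESeq2 1.30.1 and hg38, and the role of each is not given in the sources used here. Groups and replicate numbers came from the sample titles.

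Counts were fitted for all 38100 genes with edgeR 4.0.16 (R 4.3.3): filterByExpr at a minimum count of 10 (17720 genes), TMM, robust quasi-likelihood test and Benjamini-Hochberg adjustment. CPM use TMM-scaled library sizes. Total counts ranged from 41537353 to 85684748, so precision is limited for genes near the floor of 3 counts, which covers counting error only. Single values were also compared by two-sided exact permutation tests of 3 against 3 samples, whose smallest p is 0.1. Gene length was taken from the ratio of counts to FPKM, and each library's length trend (lowess, span 0.3) was removed through offsets. Shares within families are of summed FPKM. Correlations with ACTA2 used log2(CPM + 0.1).

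Replicate numbers come from the titles. Deviations from the group means correlated across genes at 0.178, 0.159 and 0.176 within equal numbers and at -0.188 to 0.030 between unequal ones. Deviations of 3 samples from their mean cancel out, so these values are tied to each other and do not establish pairs. The replicate number was used as a block in an alternative only. The other alternatives were RLE normalization, DESeq2 1.42.0, all genes with at least 1 count, 10 counts in every sample, limma 3.58.1 on log2(FPKM + 1) or log2(FPKM + 0.1), on genes with a mean of 1 FPKM or with the block, the length trend removed, and each sample left out. Removal of the trend on GENCODE lengths, known for 82.1% of tested genes, was chosen after seeing the data.

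The contractile genes and lists were chosen with earlier results of these data known. Named were all 10 genes, up to 5 higher and 5 lower genes of each list with the smallest unadjusted p under 0.05, their paralogs, the 3 genes most like ACTA2, markers near 0 and SIRT4. PCSK7, FAS and TPM1-AS were named after their values were seen, because they overlap. One leukocyte marker is not reported here. The procedure was tested on simulated data. Positions are from RefSeq and GENCODE on GRCh38. Figures were drawn with matplotlib 3.10.9 in Python 3.11.15.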

Additional observations from a re-analysis of the deposited data

How the results depend on the processing

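Of 269 values of 15 named genes over 18 alternative settings, 249 kept their direction and their side of the adjusted threshold, 8 newly passed it and 12 reversed. The unadjusted threshold was lost in 41 and gained in 4, the gains being CALD1 and MYH9. ACTA2 ran from -0.22 to 0.085 with each sample left out, MYL9 from -0.16 to 0.22 (below 0 without AdCtrl replicate 3 or AdSIRT4 replicate 1), ACTN1 from -0.29 to 0.066 and MYH9 from -0.16 to 0.14, as log2 fold changes. MYL9 was at -0.014 in limma with log2(FPKM + 1), with and without the replicate block and for genes with a mean of 1 FPKM, and at -0.0141 with log2(FPKM + 0.1). MYH9 was at 0.038 with the length trend removed, 0.035 with the replicate block as well and 0.053 on GENCODE lengths. None of these genes passed the adjusted test in any setting. Contractile genes past the adjusted threshold numbered 0 to 2 with each sample left out, and those past the unadjusted one 0 to 4, beside 0 in limma with the replicate block. The largest of both counts came without AdSIRT4 replicate 1, where 6.71% and 24.3% of all tested genes passed. With the replicate block alone in edgeR 2 contractile genes passed the unadjusted threshold, as without it, and no adjusted call among these genes and lists changed.

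Of the other contractile genes, 4 in the reported fit, 2 passed the unadjusted threshold with all genes that had a count, 2 with the replicate block, 2 in limma on log2(FPKM + 1) and 2 in it with the replicate block, 1 for genes with a mean of 1 FPKM, 9 with the length trend removed, 7 with the replicate block as well, 7 on GENCODE lengths, and 1 to 8 with each sample left out. Of the SRF and actin regulator genes, 3 in the reported fit, 2 passed with the replicate block, 6 with the length trend removed, 6 with the replicate block as well, 5 on GENCODE lengths and 2 to 7 with each sample left out. The cause of these changes was not tested. The largest numbers came without AdSIRT4 replicate 1 or its length trend, where more of all tested genes passed as well. The unadjusted threshold was passed by 7.93% of all tested genes in the reported fit and by 13.9% with the length trend removed. Without AdSIRT4 replicate 1 it was passed by 24.3%. Shares for the other settings are not given here. TPM2, ACTG2 and ACTA2 are limited by their few reads.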
